A study of Macaca fuscata with 12 samples.

Results

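Receptors for serotonin, dopamine, noradrenaline and adrenaline, acetylcholine and histamine were followed on microarrays of the cerebral cortex of Japanese macaques (Macaca fuscata). They were all probe sets (groups of short probes for 1 transcript) that the array's gene table gave a single symbol of the families HTR, DRD, ADRA and ADRB, CHRM, CHRN or HRH. The rule found 65 of 52766 probe sets tested, and they stood for 43 of 14132 genes. The serotonin receptors had 19 probe sets for 14 genes, the dopamine receptors 4 for 2 genes, the adrenergic receptors 8 for 4 genes, the muscarinic receptors 5 for 4 genes, the nicotinic subunits 23 for 16 genes and the histamine receptors 6 for 3 genes. Members of these families without a probe set of a single symbol, such as DRD1, HTR2C and ADRB1, were not analysed here.

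The study compared animals trained in tool use with control animals in 2 parts of the left hemisphere. One was the surroundings of the intraparietal sulcus (IPS) and the other the surroundings of the lateral sulcus with the secondary somatosensory cortex (SII). The groups were IPS trained, IPS control, SII trained and SII control, each with 3 arrays of 3 different animals. The 12 arrays came from 8 animals, of which 4 (2 trained and 2 control) gave tissue from both regions. All IPS arrays came from males, while SII trained 2 and SII control 1 came from females and the other SII arrays from males. Ages ran from 5 years and 1 month to 6 years in IPS trained, from 3 years and 9 months to 5 years and 10 months in IPS control, from 3 years and 10 months to 5 years and 7 months in SII trained and from 4 years and 6 months to 5 years and 10 months in SII control. No genetic change or drug is named for any group, and the labels do not give the length of the training. They give no hybridisation date either, and because arrays of IPS and SII were named by different schemes, region and hybridisation batch may coincide and cannot be told apart.

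Most of these receptors sit in the cell membrane and pass the signal on through G proteins, which raise or lower cyclic AMP or release calcium from stores. The nicotinic receptors and the HTR3 serotonin receptors differ in that they are ion channels built from several subunits, so that the subunits present set the properties of the channel. The fibres that release these transmitters in the cortex come from small groups of cells in the brain stem, hypothalamus and basal forebrain, and they set the excitability of cortical neurons during arousal, attention and learning.

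The authors deposited log2 values from which each probe set's own median over all arrays had been taken off, and these are the values given here. Centring took away the level of each probe set, so no gene could be ranked by abundance against another. A rough signal class (high, middle or low) was recovered from the number format. A further class, called floor here, held probe sets that carried the lowest possible value on at least 2 arrays. Such a value tells only that the signal was no higher, and floor values cannot be ordered among each other. Arrays differed in several respects. Hybridisation control probe sets lay at 0.45 to 0.54 on SII trained 2, SII control 1 and IPS trained 3, against -0.13 to 0.08 on the others. The difference between 3' and 5' probe sets of actin, which moves with RNA breakdown, ran from -1.87 to 1.37. It was -1.87, -1.71 and -1.54 on SII control 2, SII control 3 and SII trained 3 and at least -0.79 on the others. For GAPDH the same difference overlapped, with -0.51 to -0.23 on these arrays and -0.31 to 0.89 on the others. The floor itself lay up to 1.67 log2 units apart between arrays. The tissue label was checked with marker genes. Excitatory neuron markers had 3 high and 6 middle signals among 9 probe sets, astrocyte markers 5 high and 2 middle among 7, and both probe sets of the myelin gene MBP were high. Of the skeletal muscle markers, MYH2, MYL1, TNNI2 and TNNT3 had low or floor signals only, whereas CKM had a high signal. Low signals were also found for all 4 probe sets of the red blood cell markers.

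Few receptor probe sets gave a high signal, and their spread was somewhat larger than that of all probe sets tested. Their shares of middle and floor signals were near those of the whole array. Only 2 of 65 probe sets (3.08%) had a high signal, against 8.49% of all probe sets tested, and both were for CHRNA7, the subunit of the fast calcium-permeable nicotinic receptor. A middle signal was found for 26 probe sets (40.0%, against 39.6% of all), a low signal for 26 (40.0%, against 33.1%) and a floor for 11 (16.9%, against 18.8%). The median SD within groups was 0.71 log2 units for the receptors and 0.57 for all probe sets tested. A smaller SD than 0.57 was found for 27 of the 65 receptor probe sets (41.5%). Within each signal class the receptors also had the larger median SD, most clearly for middle signals, with 0.48 against 0.37 for all probe sets tested. It was 0.25 against 0.23 for high, 0.81 against 0.78 for low and 1.12 against 1.03 for floor probe sets. The quietest was HTR1E, with an SD of 0.17, and the noisiest was CHRM1, with 1.90.

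**Figure D1:**
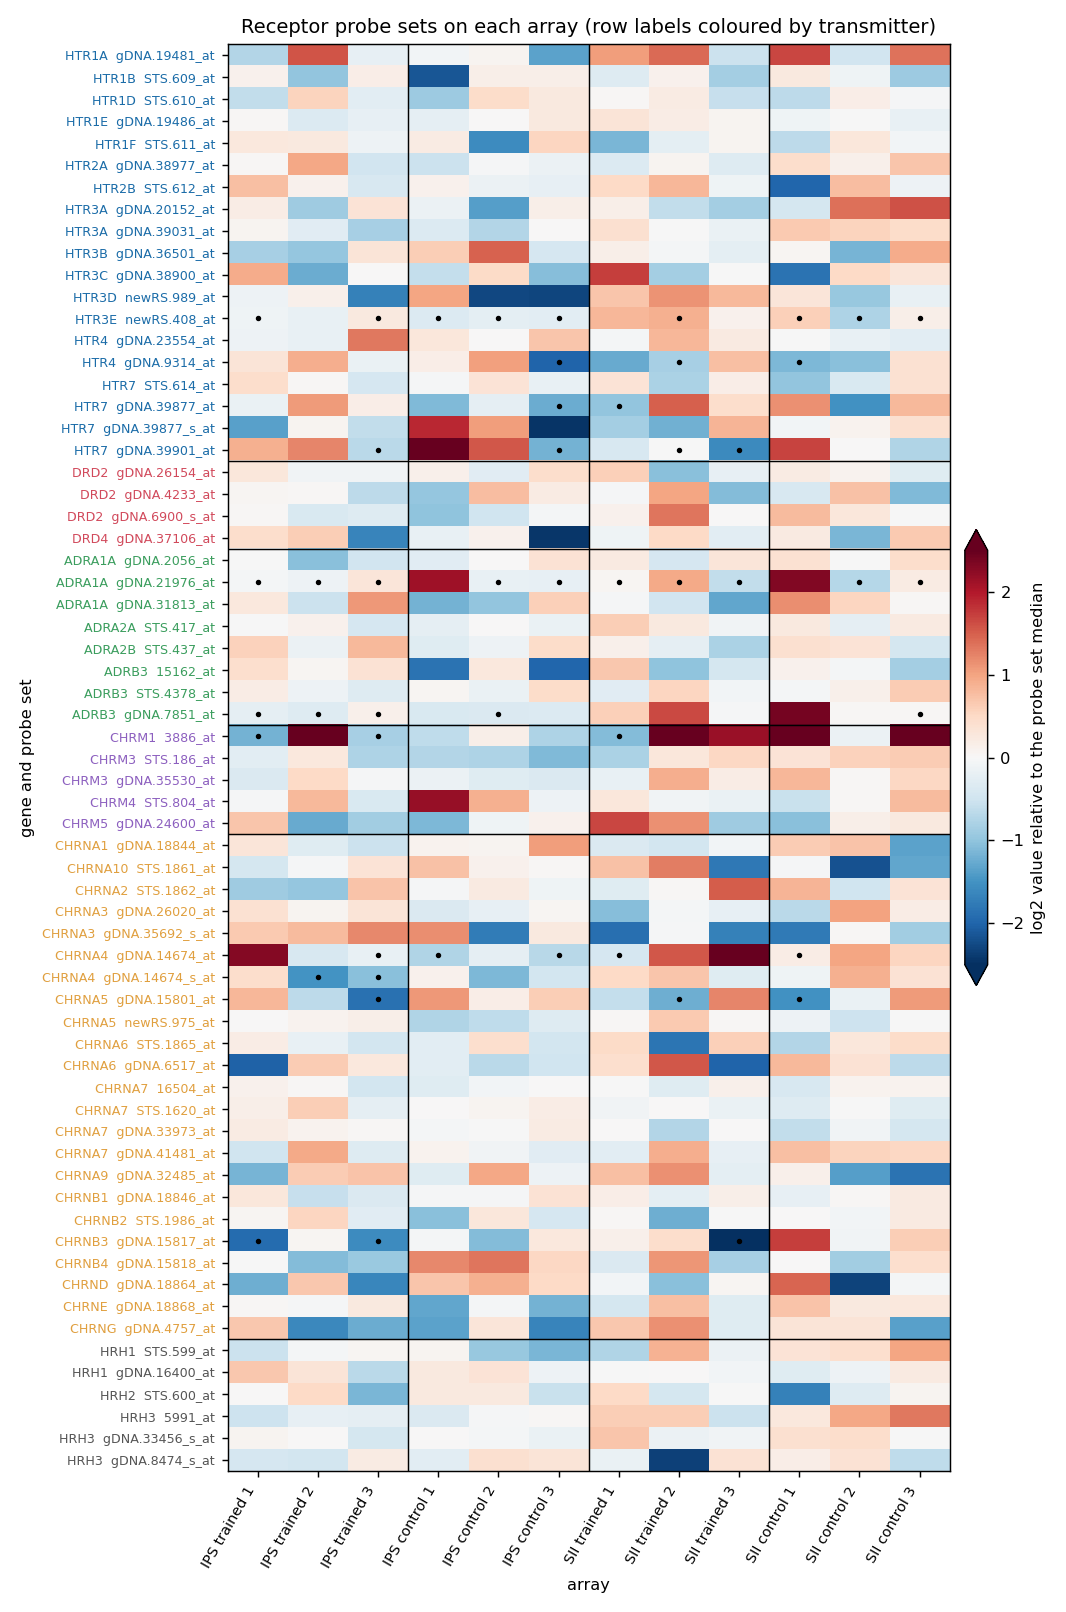
Each row is 1 of the 65 receptor probe sets and each column 1 of the 12 arrays, with colour giving the log2 value relative to the median of the probe set and black dots marking values at the floor. CHRM1, CHRNB3, CHRNA4 and the HTR7 probe sets hold many of the strongest colours, while the ADRA2A and HTR1E rows stay pale, as do the CHRNA7 rows other than MmugDNA.41481.1.S1_at.

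Where a gene had several probe sets, their agreement could be measured. A gene was counted as agreeing where the median Pearson correlation between its probe sets over the 12 arrays was at least 0.5. Of the 14 receptor genes with several probe sets, 3 (21.4%) agreed, against 15.4% of 6375 such genes on the array and 26.6% of the 2388 whose probe sets all had high or middle signals. They were CHRM3 (r = 0.72), CHRNA3 (0.56) and HTR3A (0.52), each with 2 probe sets. The correlations share arrays and their differences in scaling, and are given as a description. With the group means taken off first, CHRNA3 alone stayed above 0.5 (0.52), while CHRM3 had 0.49 and HTR3A 0.24.

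The other 11 genes did not agree. CHRNA4 had r = 0.40, although its 2 probe sets are named for the same target and both were floor probe sets. The other pair named for the same target, of HTR7, had r = 0.03. Of the 4 CHRNA7 probe sets, 3 correlated with each other at 0.33 to 0.49, and the fourth (MmugDNA.41481.1.S1_at) had correlations of -0.70 to 0.14 with them. The median was 0.15 for HRH3, 0.10 for ADRA1A, 0.07 for ADRB3 and 0.03 for the 4 probe sets of HTR7. It was negative for HRH1 (-0.17), DRD2 (-0.21), HTR4 (-0.28), CHRNA5 (-0.45) and CHRNA6 (-0.67). The remaining 29 genes had 1 probe set each and could not be classed in this way.

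**Figure D2:**
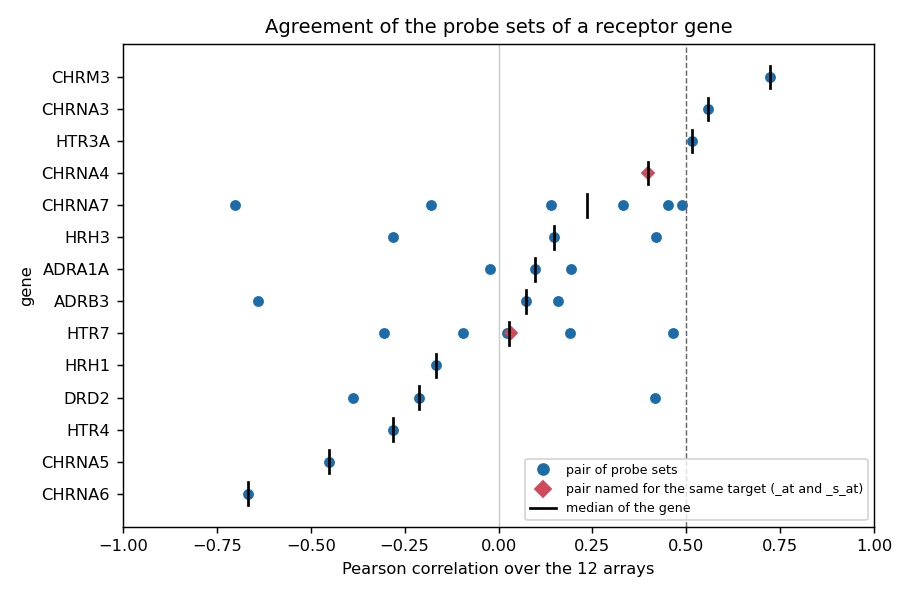
Points are Pearson correlations over 12 arrays between pairs of probe sets of a receptor gene, diamonds mark pairs named for the same target, black bars are the medians of the genes and the dashed line is 0.5. CHRM3, CHRNA3 and HTR3A lie above the line, and 5 genes have medians below 0.

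The agreeing genes come first. CHRM3 encodes a muscarinic acetylcholine receptor that couples to calcium release. Its probe set MmuSTS.186.1.S1_at lay at -0.27, 0.27 and -0.77 on the IPS trained arrays, at -0.72, -0.76 and -1.10 on the IPS control arrays, at -0.80, 0.28 and 0.52 on the SII trained arrays and at 0.34, 0.57 and 0.63 on the SII control arrays. MmugDNA.35530.1.S1_at lay at -0.37, 0.51 and -0.02 in IPS trained, at -0.14, -0.30 and -0.35 in IPS control, at -0.18, 0.90 and 0.18 in SII trained and at 0.83, 0.02 and 0.51 in SII control. On both probe sets all IPS control arrays were below all SII control arrays, while the trained arrays of the regions overlapped. The training difference on the first probe set was 0.61 ± 0.37 in IPS and -0.50 ± 0.37 in SII (fitted difference ± SE), and neither these nor their difference of 1.11 ± 0.52 passed the test (unadjusted p = 0.129, 0.206 and 0.0556, adjusted p of 1.0 for each in limma).

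HTR3A encodes the subunit that every HTR3 channel needs, and in the cortex it is known from a class of inhibitory neurons. MmugDNA.39031.1.S1_at, with a middle signal, lay at 0.06, -0.28 and -0.83 in IPS trained, at -0.35, -0.73 and 0.01 in IPS control, at 0.39, -0.01 and -0.16 in SII trained and at 0.65, 0.55 and 0.46 in SII control. The SII control arrays were the 3 highest of the 12. MmugDNA.20152.1.S1_at, with a low signal, lay at 0.18, -0.88 and 0.35 in IPS trained, at -0.14, -1.38 and 0.15 in IPS control, at 0.14, -0.61 and -0.86 in SII trained and at -0.43, 1.37 and 1.59 in SII control. Here 2 of the 3 SII control arrays, SII control 2 and SII control 3, stood above all others. These arrays also had the lowest actin differences (-1.87 and -1.71), and a part of RNA quality in the HTR3A values was not tested. The mean of both probe sets was lower in SII trained than in SII control by a fitted -0.90 ± 0.36 (unadjusted p = 0.0311, adjusted p of 1.0 over 14132 genes), while the IPS training difference was 0.19 ± 0.36 (the difference between these was 1.09 ± 0.50, unadjusted p = 0.0521).

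CHRNA3 encodes a subunit best known from the receptors of autonomic ganglia and of the medial habenula. MmugDNA.35692.1.S1_s_at lay at 0.65, 0.79 and 1.19 in IPS trained, at 1.17, -1.75 and 0.25 in IPS control, at -1.88, -0.03 and -1.69 in SII trained and at -1.76, 0.03 and -0.86 in SII control. All IPS arrays but IPS control 2 were above all SII arrays. MmugDNA.26020.1.S1_at lay at 0.39, 0.07 and 0.32 in IPS trained, at -0.35, -0.20 and 0.05 in IPS control, at -1.07, -0.05 and -0.20 in SII trained and at -0.68, 1.00 and 0.18 in SII control. On this second probe set the regions overlapped, and the IPS trained arrays stood above the IPS control arrays by a fitted 0.45 ± 0.41 (unadjusted p = 0.303). Both CHRNA3 probe sets had a low signal.

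**Figure D3:**
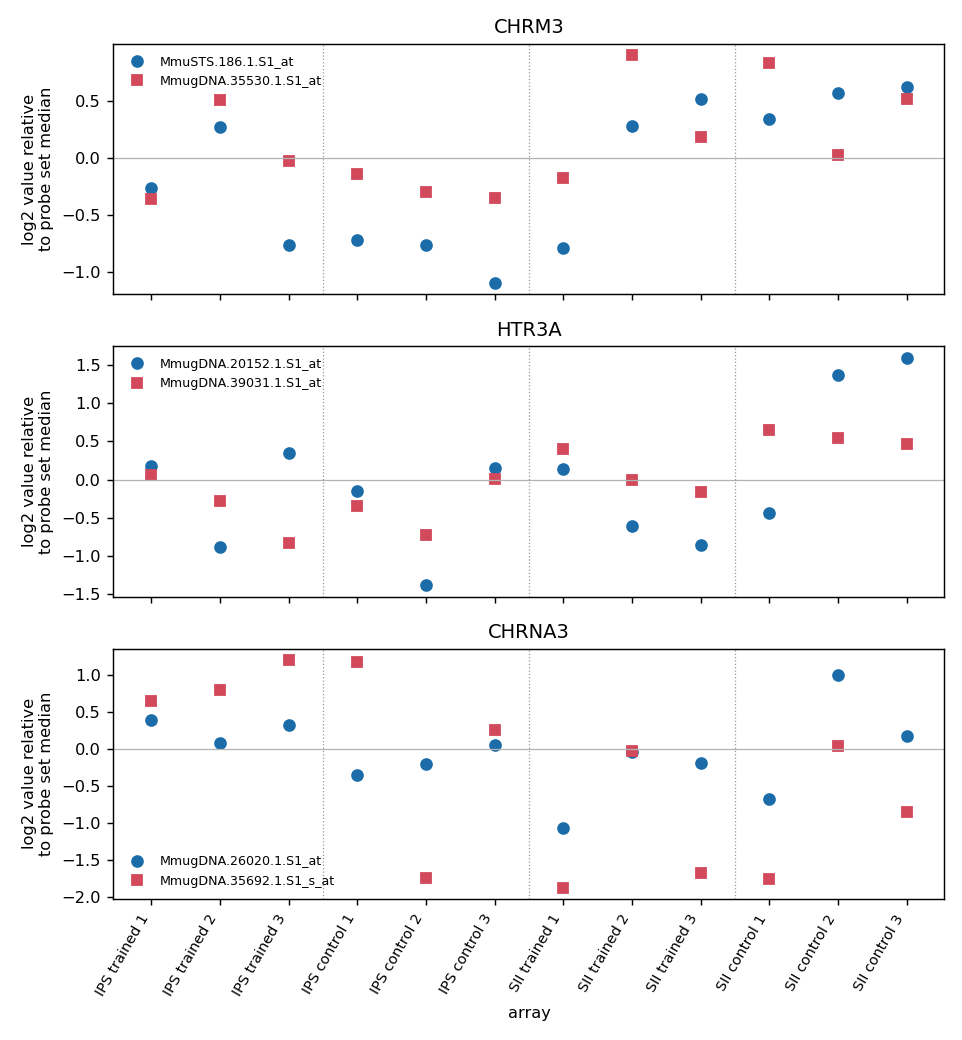
The log2 value relative to the probe set median is plotted for both probe sets (circles and squares) of CHRM3, HTR3A and CHRNA3 on each array, with dotted lines between the groups. For CHRM3 and HTR3A the SII control arrays hold most of the highest points, and for CHRNA3 the squares of the IPS arrays other than IPS control 2 lie above those of the SII arrays.

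The first comparison of the study asked which transcripts differed between trained and control animals. No receptor did so past the threshold in either region. In IPS and in SII, 0 of 65 probe sets passed a Benjamini-Hochberg adjusted p of 0.05 in limma, and 0 of 52766 (0.0%) did so over the whole array. At an unadjusted p under 0.05 the receptors called in IPS were 4 (6.15%, against 3.27% of all probe sets), and in SII 1 (1.54%, against 3.87%). The difference between the IPS and the SII change was past that level for 3 (4.62%, against 3.68%), and the average over regions for 1 (1.54%, against 3.48%). Each of these counts rests on 1 to 4 probe sets. With the probe sets of each gene averaged, the counts of 43 genes were 2 in IPS (4.65%, against 2.87% of all genes), 2 in SII (4.65%, against 3.49%), 3 for the difference (6.98%, against 3.28%) and 0 for the average (against 3.02%).

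Trained and control arrays did not overlap for 7 receptor probe sets in IPS (10.8%, against 9.49% of all) and for 6 in SII (9.23%, against 7.08%). In IPS the ADRB3 and HTR3E probe sets among them rest on floor values, which have no order. With 3 arrays a side an exact permutation test cannot give a p below 0.10. The median training difference over the receptors was 0.03 in IPS (0.01 over all probe sets) and -0.025 in SII (0.06 over all). The median SE of a receptor's training difference was 0.54 log2 units, and the 95% interval lay within 1 log2 unit of 0 for 14 of 65 probe sets in IPS and 11 in SII. For the others a difference of that size was not bounded at this number of arrays. In bulk tissue fewer cells of a type and less RNA per cell cannot be told apart.

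**Figure D4:**
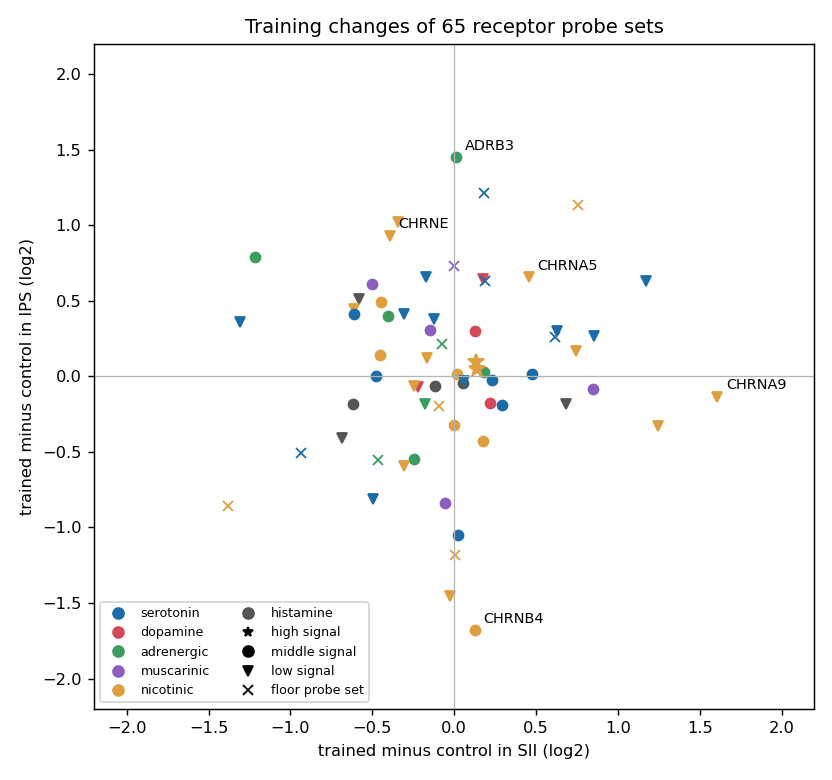
Each point is 1 of 65 receptor probe sets, with the fitted trained minus control difference in SII on the horizontal axis and in IPS on the vertical axis (log2), coloured by transmitter and shaped by signal class. The named genes had an unadjusted p under 0.05 in 1 region, none passed after adjustment, and the CHRNA7 stars lie beside the origin.

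Among the serotonin receptors no probe set reached an unadjusted p of 0.05 for training. The 19 probe sets had a median training difference of 0.27 in IPS, with 13 higher and 6 lower (-0.015 over those with high or middle signals only), and of 0.06 in SII, with 11 higher and 8 lower. The mean of the array medians was -0.04 ± 0.14 in IPS trained, -0.09 ± 0.11 in IPS control, 0.07 ± 0.08 in SII trained and 0.09 ± 0.18 in SII control (SD, 3 arrays each), so the groups lay within each other's spread. HTR1E, an inhibitory receptor with the smallest spread of all members, lay at 0.32, 0.19 and 0.07 in SII trained and at -0.10, -0.02 and -0.18 in SII control. These arrays did not overlap, yet the fitted difference was 0.29 ± 0.21 (unadjusted p = 0.192), and in IPS it was -0.19 ± 0.21.

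HTR2A, the excitatory receptor of cortical pyramidal cells and the target of serotonergic hallucinogens, had 1 probe set with a middle signal. It lay at 0.03, 0.97 and -0.47 in IPS trained, at -0.53, -0.03 and -0.15 in IPS control, at -0.35, 0.06 and -0.32 in SII trained and at 0.45, 0.12 and 0.70 in SII control. The SII groups did not overlap (trained minus control -0.61 ± 0.35, unadjusted p = 0.112), and the IPS groups did. The difference between the training changes was 1.03 ± 0.49 with an unadjusted p of 0.0623, and 1.02 ± 0.46 with 0.0485 in the fit over genes.

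The other serotonin receptors varied more. The HTR1 receptors HTR1A, HTR1B, HTR1D and HTR1F, which lower cyclic AMP and in part sit on serotonin fibres themselves, had low signals and SDs within groups of 0.56 to 1.06. HTR2B had an SD of 0.79, and the channel subunits HTR3B, HTR3C and HTR3D had 0.79 to 1.14. HTR3D was higher in SII trained (0.69, 1.13 and 0.80) than in SII control (0.30, -0.94 and -0.18) without overlap, but its SE of 0.83 was close to the difference of 1.17. HTR3E was at the floor on 9 of 12 arrays, so its groups have no order. HTR4 and HTR7, which raise cyclic AMP, showed how far probe sets of a gene can part. The 4 HTR7 probe sets had IPS training differences of 1.21, -0.03, -0.51 and -0.81 with SEs of 0.41 to 0.97, and the HTR4 probe sets had 0.63 and 0.02. The HTR7 values of 1.21 and -0.81 came from the pair named for the same target.

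The dopamine receptors with a probe set were DRD2 and DRD4, both of which lower cyclic AMP. Their 4 training differences ran from -0.17 to 0.64 in IPS and from -0.22 to 0.22 in SII, all with an unadjusted p above 0.43. DRD4 was the more variable, with -1.66 on IPS trained 3 and -2.44 on IPS control 3 and no other array below -1.14. Group means of array medians were -0.12 ± 0.33 in IPS trained, -0.20 ± 0.34 in IPS control, 0.18 ± 0.50 in SII trained and 0.08 ± 0.20 in SII control (SD).

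The adrenergic receptors ADRA2A and ADRA2B, which lower cyclic AMP, showed no training difference past the test. ADRA2B had 0.40 ± 0.38 in IPS and -0.41 ± 0.38 in SII. ADRA2A, the main such receptor of the cortex, had a small spread (SD 0.26) and training differences of 0.03 (95% interval -0.54 to 0.59) in IPS and 0.19 (-0.38 to 0.75) in SII. ADRB3, a receptor best known from fat tissue, had 3 probe sets that went different ways. The one with a middle signal lay at 0.42, 0.05 and 0.37 in IPS trained, at -1.84, 0.26 and -1.99 in IPS control, at 0.67, -0.999 and -0.45 in SII trained and at 0.11, -0.05 and -0.84 in SII control. IPS control 2 was in the range of the trained arrays, the other IPS controls were far below, and the SII groups overlapped. The IPS difference was 1.45 ± 0.61 (unadjusted p = 0.0387, adjusted p of 1.0), and its unadjusted p stayed under 0.05 in 15 of 26 alternative fits. On the low-signal ADRB3 probe set it was -0.18 ± 0.30, and on the floor probe set, which was at the floor on all IPS trained arrays, it was 0.21 ± 0.61. The mean of all 3 had 0.49 ± 0.28 (unadjusted p = 0.113). Counts of alternative fits, here and below, include a fit on the mean of a gene's probe sets, and the fits reuse the same arrays.

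ADRA1A, which couples to calcium release, had 1 probe set (MmugDNA.31813.1.S1_at) with an unadjusted p of 0.032 for the difference between the training changes (2.01 ± 0.81). It lay at 0.27, -0.54 and 1.09 in IPS trained, at -1.18, -0.99 and 0.59 in IPS control, at -0.03, -0.47 and -1.30 in SII trained and at 1.17, 0.54 and 0.03 in SII control. All SII trained arrays were below all SII control arrays, by a margin of 0.07 at the nearest pair, and the IPS groups overlapped. The other middle-signal probe set of ADRA1A gave -0.30 ± 0.45 for the same difference, and the third was at the floor on 10 arrays. With male animals only, the value for MmugDNA.31813.1.S1_at was 1.78 (unadjusted p = 0.101), and the unadjusted p stayed under 0.05 in 13 of 25 alternative fits.

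Of the other muscarinic receptors, CHRM1 is the main one of the cortex and hippocampus, yet its single probe set was the most variable receptor probe set. It lay at the floor on IPS trained 1, IPS trained 3 and SII trained 1 and 4.15 log2 units above it on IPS trained 2, 4.21 above it on SII trained 2 and 3.91 above it on SII trained 3. In the controls it was 0.58 to 1.46 above the floor in IPS and 1.71 to 3.80 above it in SII. Each trained group thus held arrays at the floor and arrays far above it, and its training differences were 0.73 ± 1.39 in IPS and 0.00 ± 1.39 in SII. CHRM4, which lowers cyclic AMP, had differences of -0.84 ± 0.56 and -0.05 ± 0.56, and CHRM5, known from midbrain dopamine neurons, had -0.08 ± 0.72 and 0.84 ± 0.72, in IPS and in SII in each case.

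The nicotinic subunits held 4 of the 5 receptors with an unadjusted p under 0.05 for training in a region. They were 3 of 23 in IPS (13.0%, against 3.27% of all probe sets) and 1 of 23 in SII (4.35%, against 3.87%), and none passed after adjustment. Their medians were near 0, at 0.02 in IPS (12 of 23 higher) and 0.00 in SII (11 higher and 12 lower). CHRNA7, CHRNB2 and CHRNA4, which make up the main receptors of the cortex, had no unadjusted p under 0.05 for training. The quiet CHRNA7 probe sets gave narrow intervals. Its 4 probe sets differed between trained and control by 0.02, 0.10, 0.05 and 0.14 in IPS and by 0.02, 0.14, 0.14 and -0.46 in SII. For the pair with a high signal the 95% intervals ran from -0.53 to 0.64 in IPS and from -0.44 to 0.71 in SII. CHRNB2, which joins CHRNA4 in the most abundant nicotinic receptor of the brain, had 0.49 ± 0.42 and -0.45 ± 0.42, and the floor probe sets of CHRNA4 had 1.14 and -0.19 in IPS and 0.75 and -0.10 in SII.

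CHRNA5, an accessory subunit that raises the calcium flow of such receptors, had 1 probe set (MmunewRS.975.1.S1_at) that was higher in trained animals in both regions. Its spread was small (SD 0.25), but its signal was low. It lay at 0.01, 0.09 and 0.15 in IPS trained, at -0.75, -0.64 and -0.32 in IPS control, at 0.03, 0.66 and 0.03 in SII trained and at -0.12, -0.52 and -0.01 in SII control. Trained and control arrays overlapped in neither region, although the lowest SII trained array, at 0.03, was close to the highest SII control array, at -0.01. Some animals gave tissue from both regions, so the regions are not separate sets of animals. The difference was 0.66 ± 0.25 in IPS (unadjusted p = 0.0244) and 0.45 ± 0.25 in SII (0.0977), and the average over regions was 0.56 ± 0.18 (0.0109). The adjusted p was 1.0 in each case.

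The second CHRNA5 probe set went the other way in IPS, with -1.18 ± 0.86, and gave 0.01 ± 0.86 in SII. It was at the floor on IPS trained 3, SII trained 2 and SII control 1. The mean of both probe sets was -0.26 ± 0.43 in IPS, 0.23 ± 0.43 in SII and -0.02 ± 0.31 on average, so the direction for the gene depended on the probe set.

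CHRNB4, which pairs with CHRNA3 in ganglia, had the smallest p of the training comparisons. Its 1 probe set, with a middle signal, lay at -0.01, -1.09 and -0.92 in IPS trained, at 1.21, 1.33 and 0.51 in IPS control, at -0.36, 1.11 and -0.83 in SII trained and at 0.01, -0.88 and 0.42 in SII control. The IPS groups stood apart and the SII groups overlapped. The difference was -1.68 ± 0.54 in IPS (unadjusted p = 0.0105, adjusted p of 1.0) and 0.12 ± 0.54 in SII, and the difference between these was -1.80 ± 0.75 (unadjusted p = 0.0361). The unadjusted p for IPS stayed under 0.05 in 26 of 26 alternative fits, with a difference of -2.03 to -1.47, and that for the difference between regions in 14 of 25 (-2.15 to -1.22). Some of these fits leave the values of this single non-floor probe set unchanged, so the counts are not separate support. In human and mouse CHRNA5, CHRNA3 and CHRNB4 lie side by side in 1 gene cluster. Here their IPS training differences were 0.66 and -1.18 for the probe sets of CHRNA5, 0.45 and 1.02 for those of CHRNA3 and -1.68 for CHRNB4.

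CHRNA9 forms the receptor of cochlear hair cells with CHRNA10. It lay at -1.16, 0.63 and 0.70 in IPS trained, at -0.30, 0.97 and -0.12 in IPS control, at 0.75, 1.15 and -0.24 in SII trained and at 0.12, -1.38 and -1.85 in SII control. SII trained 3 was below SII control 1, so the SII groups overlapped, and the difference was 1.61 ± 0.67 in SII (unadjusted p = 0.0369) and -0.13 ± 0.67 in IPS. CHRNA10 had 1.25 ± 0.76 in SII and -0.33 ± 0.76 in IPS. Both had a low signal.

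CHRNE, a subunit of the mature nerve-muscle receptor, had a low signal. Its probe set lay at 0.02, -0.02 and 0.25 in IPS trained, at -1.31, -0.04 and -1.17 in IPS control, at -0.43, 0.76 and -0.31 in SII trained and at 0.71, 0.25 and 0.26 in SII control. IPS control 2 was only 0.02 below the lowest IPS trained array, and the other IPS control arrays were more than 1 log2 unit below. The difference was 0.93 ± 0.40 in IPS (unadjusted p = 0.0417) and -0.40 ± 0.40 in SII, and the difference between these was 1.33 ± 0.56 (0.038). The unadjusted p stayed under 0.05 in 15 of 25 alternative fits for IPS and in 14 of 24 for the difference. The skeletal muscle markers had array medians of -0.04 to 0.03 in IPS trained and -0.48 to 0.25 in IPS control, and their part in the result was not tested. The other subunits of that receptor, CHRNA1, CHRNB1, CHRND and CHRNG, had IPS differences of -0.59, -0.33, -1.46 and 0.17, none with an unadjusted p under 0.05.

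Of the remaining subunits, CHRNA2 had differences of -0.43 ± 0.57 in IPS and 0.18 ± 0.57 in SII. CHRNA6 and CHRNB3, known from dopamine neurons of the midbrain, had SDs within groups of 0.81 to 1.23. The CHRNA6 probe sets had training differences of -0.06 and 0.12 in IPS and of -0.24 and -0.17 in SII. CHRNB3 was at the floor on IPS trained 1, IPS trained 3 and SII trained 3 and on no control array. Its differences of -0.86 ± 0.83 in IPS and -1.38 ± 0.83 in SII did not pass (unadjusted p = 0.324 and 0.127). The floor differed between arrays, so these fitted sizes are not exact.

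The histamine receptors HRH1 (calcium release), HRH2 (cyclic AMP up) and HRH3 (the inhibitory receptor on histamine fibres and other nerve endings) had training differences of -0.41 to 0.51 in IPS and of -0.69 to 0.69 in SII, with no unadjusted p under 0.12. All 3 HRH3 probe sets were lower in trained animals in both regions, which share some animals. They were lower by 0.07 to 0.41 in IPS and by 0.12 to 0.69 in SII, each within 2 SE. Their mean gave an average over regions of -0.35 ± 0.18 (unadjusted p = 0.0797, adjusted p of 1.0).

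The second comparison set IPS against SII, averaged over training. Of the receptor probe sets, 39 of 65 were lower in IPS and 26 higher, against 26800 lower and 25966 higher over all 52766 tested. The nicotinic probe sets among them were even, with 12 lower and 11 higher. The median over the 65 was -0.12 log2 units, against -0.01 over all probe sets tested. No receptor passed an adjusted p of 0.05, and none of 52766 probe sets did (0.0%). At an unadjusted p under 0.05, 8 receptor probe sets were called (12.3%, against 9.26% of all). Of these 7 were lower in IPS (10.8% of the receptors, against 5.18% of all probe sets in that direction) and 1 was higher. Both female arrays were in SII and both had raised hybridisation controls, so region cannot be fully told apart from sex or this array difference. With male animals only, 1785 of all probe sets were called lower in IPS and 1907 higher, against 2734 and 2154 on all arrays. Over genes, 0 of 43 passed after adjustment (3 of 14132 genes did, 0.0212%), and 5 (11.6%) had an unadjusted p under 0.05, against 10.7% of all genes. Of these genes 4 were lower in IPS, a direction in which 6.38% of all genes were called, and CHRNA3 was higher. For 0 of 65 receptors all IPS arrays stood apart from all SII arrays, against 0.984% of all probe sets. The smallest adjusted p of a receptor was 0.439 per probe set and 0.372 per gene.

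**Figure D5:**
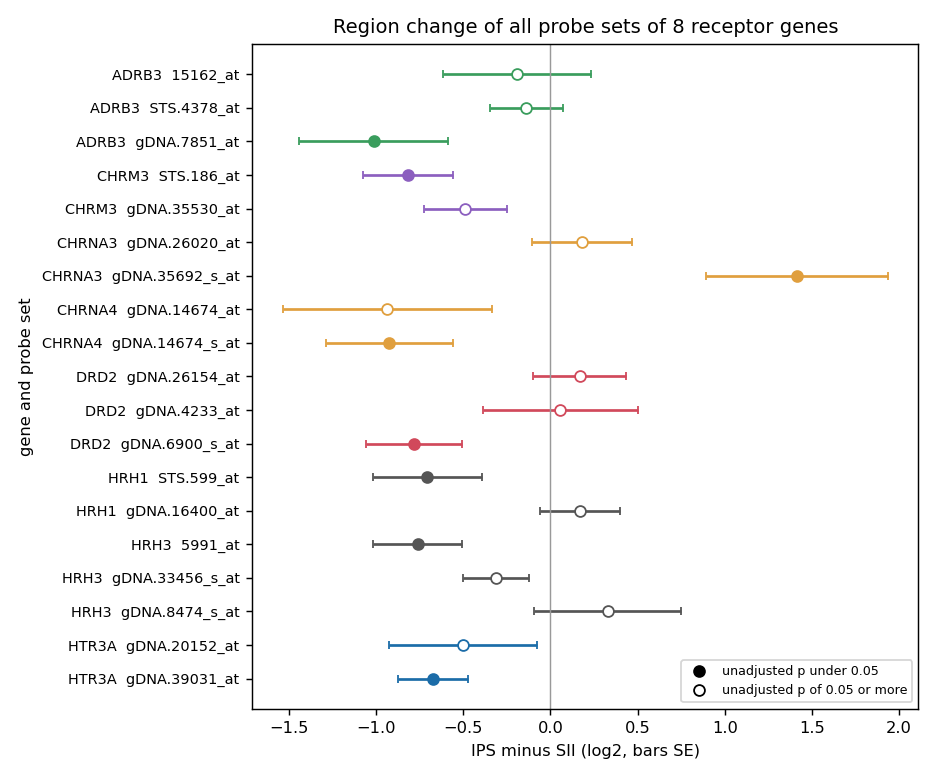
Fitted IPS minus SII differences (log2, bars are SE) are given for every probe set of the 8 genes with at least 1 unadjusted p under 0.05, which is marked by a filled point. Both probe sets lie on the same side of 0 for CHRM3, CHRNA3, CHRNA4 and HTR3A, whereas those of DRD2, HRH1 and HRH3 lie on both sides.

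HTR3A and CHRM3 had the smallest p of this comparison. Their probe sets agreed over the 12 arrays with any difference between regions left in. With the group means taken off, the correlations were 0.24 for HTR3A and 0.49 for CHRM3, both under 0.5. The agreement is therefore not separate support for a region difference. For HTR3A the IPS minus SII difference was -0.67 ± 0.20 on MmugDNA.39031.1.S1_at (unadjusted p = 0.0072, adjusted p = 0.439) and -0.50 ± 0.42 on the other. In the 4 animals with both regions the first probe set was lower in IPS in 4 of 4, by 0.34 to 1.19, and the second in 2 of 4, with both trained animals higher in IPS. For the first the unadjusted p stayed under 0.05 in 26 of 26 alternative fits, and the adjusted p ran from 0.198 to 0.771. These fits include the mean of both probe sets. For CHRM3 the difference was -0.82 ± 0.26 on MmuSTS.186.1.S1_at (unadjusted p = 0.00985, adjusted p = 0.462) and -0.49 ± 0.24 on the other. In the same animals CHRM3 was lower in IPS in 3 of 4 on the first and in 4 of 4 on the second. The mean of both probe sets gave -0.65 ± 0.21 (unadjusted p = 0.00936, adjusted p = 0.372).

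CHRNA3, the third agreeing gene, was the only one of the 8 that was higher in IPS, by 1.42 ± 0.52 on MmugDNA.35692.1.S1_s_at (unadjusted p = 0.0215, adjusted p = 0.494) and by 0.18 ± 0.29 on the other. In the animals with both regions the first was higher in IPS in 3 of 4 and the second in 2 of 4.

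CHRNA4, the partner of CHRNB2, had IPS minus SII differences of -0.92 ± 0.36 and -0.94 ± 0.60 on its floor probe sets (unadjusted p = 0.0289 and 0.15). MmugDNA.14674.1.S1_s_at lay at 0.44, -1.48 and -1.05 in IPS trained, at 0.11, -1.12 and -0.46 in IPS control, at 0.49, 0.69 and -0.30 in SII trained and at -0.11, 0.88 and 0.35 in SII control. The lowest value, on IPS trained 2, and that on IPS trained 3 were at the floor, while IPS control 2 lay between them and above its own floor. With 1 common floor for all arrays the difference was -0.50 (unadjusted p = 0.0694).

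ADRB3 was low in IPS on 1 floor probe set (MmugDNA.7851.1.S1_at, -1.01 ± 0.43, unadjusted p = 0.0382). It lay at -0.23, -0.32 and 0.12 in IPS trained, at -0.39, -0.36 and -0.35 in IPS control, at 0.60, 1.65 and -0.02 in SII trained and at 2.40, 0.02 and 0.03 in SII control. The highest values were on SII control 1 and SII trained 2, which came from females and also had raised hybridisation controls and the highest floors. Measured above its own floor, SII trained 2 (0.88) was below SII control 2 (0.92), which came from a male. In all, 5 of the arrays were at the floor. The difference was -0.41 with male animals only and -0.40 with 1 common floor, and the other ADRB3 probe sets gave -0.19 and -0.14. The mean of all 3 was -0.44 ± 0.19 (unadjusted p = 0.045, adjusted p = 0.46).

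DRD2 was lower in IPS on MmugDNA.6900.1.S1_s_at, which lay at 0.03, -0.38 and -0.31 in IPS trained, at -0.996, -0.50 and -0.05 in IPS control, at 0.11, 1.34 and 0.02 in SII trained and at 0.78, 0.29 and -0.02 in SII control. All SII arrays were above every IPS array but IPS trained 1. The highest, SII trained 2, came from a female and had raised hybridisation controls. The difference was -0.78 ± 0.28 (unadjusted p = 0.0174, adjusted p = 0.478), and -0.47 with male animals only (unadjusted p = 0.0604). In the 4 animals with both regions it was lower in IPS in 4 of 4. The other DRD2 probe sets gave 0.06 ± 0.45 and 0.17 ± 0.27, so the single probe sets went different ways, and the mean of all 3 was -0.18 ± 0.22 (unadjusted p = 0.416).

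DRD2 is abundant in the striatum, which with the claustrum lies beneath the cortex of the lateral sulcus. Markers of striatum and claustrum were lower in IPS for 6 of 8 genes, with a median of -0.23, and their array medians were -0.33 to 0.07 in IPS and -0.08 to 0.28 in SII. PPP1R1B, a dopamine-regulated phosphatase inhibitor of striatal neurons, had -0.61 ± 0.27 (unadjusted p = 0.0436), with low or floor signals only. PENK, which is rich in striatal neurons that carry DRD2, had 0.15 ± 0.14. Their part in the DRD2 value was not tested.

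The histamine receptors HRH3 and HRH1 were lower in IPS on 1 probe set each. For HRH3 it was the only probe set without the suffix _s_at, which lay at -0.52, -0.21 and -0.23 in IPS trained, at -0.37, -0.02 and 0.02 in IPS control, at 0.61, 0.61 and -0.54 in SII trained and at 0.26, 0.96 and 1.31 in SII control. All SII arrays but SII trained 3 were above all IPS arrays. The difference was -0.76 ± 0.26 (unadjusted p = 0.0134, adjusted p = 0.471), and the other HRH3 probe sets had -0.31 ± 0.19 and 0.33 ± 0.42. HRH1 MmuSTS.599.1.S1_at, with a low signal, lay at -0.54, -0.05 and 0.05 in IPS trained, at 0.08, -0.95 and -1.15 in IPS control, at -0.75, 0.87 and -0.15 in SII trained and at 0.34, 0.43 and 0.98 in SII control. Its regions overlapped, the difference was -0.71 ± 0.31 (unadjusted p = 0.0471), the unadjusted p stayed under 0.05 in 6 of 25 alternative fits, and the second HRH1 probe set had 0.17 ± 0.23.

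By transmitter, the region medians were -0.64 for the muscarinic, -0.22 for the dopamine, -0.16 for the adrenergic, -0.12 for the serotonin, -0.07 for the histamine and -0.01 for the nicotinic probe sets. The muscarinic value rests on 5 probe sets, of which CHRM1, CHRM5 and both of CHRM3 were lower in IPS and CHRM4 was higher. CHRM1 had -1.78 ± 0.96 (unadjusted p = 0.0942), with 2 of 6 arrays at the floor in IPS and 1 of 6 in SII. CHRNA7 had 0.38 ± 0.18, 0.28 ± 0.17 and -0.05 ± 0.17 on the 3 probe sets that correlated at 0.33 to 0.49 and -0.40 ± 0.29 on the fourth.

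Some markers of cell types also differed in level between the regions, although none passed after adjustment. Microglia and macrophage markers were lower in IPS for 8 of 9 genes (median -0.39, array medians -0.35 to 0.04 in IPS and 0.10 to 0.40 in SII), with C1QB at -0.71 ± 0.11 (adjusted p = 0.111). Excitatory neuron markers were lower for 5 of 8 (median -0.13), with the vesicular glutamate transporter SLC17A7 at -0.89 ± 0.27 (adjusted p = 0.372). GABA neuron markers were lower for 3 of 6 (median -0.05). The regions of the excitatory and GABA markers overlapped, with array medians of -0.37 to 0.34 in IPS against -0.29 to 0.23 in SII and of -0.49 to 0.14 in IPS against -0.13 to 0.00 in SII. Their part in the receptor values was not tested.

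Genes that make, release or remove the same transmitters were described beside the receptors, as gene means. No gene of these lists passed an adjusted p of 0.05 in any comparison. Of 13 monoamine genes, 5 were higher and 8 lower in IPS trained than in IPS control (median -0.21), and 11 were higher and 2 lower in SII trained than in SII control (median 0.36). The array medians of these genes overlapped in SII, with -0.11 to 0.30 in SII trained and -0.23 to 0.01 in SII control. An unadjusted p under 0.05 was found for 1 of 13 in IPS (against 2.87% of all genes), 3 of 13 in SII (against 3.49%) and 4 of 13 for the difference between regions (against 3.28%), the last being SLC6A3, TPH1, TH and DBH. The dopamine transporter SLC6A3 had a training difference of -1.11 ± 0.32 in IPS (unadjusted p = 0.00532), and TH, the first enzyme of catecholamine synthesis, had -0.96 ± 0.51. In SII the histamine-degrading enzyme HNMT had 0.92 ± 0.27 (unadjusted p = 0.00608), the serotonin-synthesis enzyme TPH1 had -1.54 ± 0.58 (0.0225) and DBH, which makes noradrenaline, had 1.51 ± 0.64 (0.0395). TH, TPH1 and DBH had low or floor signals only.

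Of 6 acetylcholine genes none had an unadjusted p under 0.05 in any comparison, and the training medians were 0.01 in IPS and 0.05 in SII. CHAT, which makes acetylcholine, had low or floor signals only, with training differences of -0.35 ± 0.43 in IPS and 0.60 ± 0.43 in SII. Of 6 genes for assembly and modulation of nicotinic receptors, 1 had an unadjusted p under 0.05 in SII (against 3.49% of all genes). It was RAPSN, which anchors the muscle receptor, with -1.53 ± 0.63 (unadjusted p = 0.0357) and low or floor signals only. The others had none under 0.05. Among 17 downstream effectors the training medians were -0.01 in IPS and -0.01 in SII, with no unadjusted p under 0.05. Between regions the phospholipase PLCB4 was higher in IPS by 0.46 ± 0.13 (unadjusted p = 0.00492, adjusted p = 0.34), and 6 of the 17 were higher and 11 lower.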

How the data were processed

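Gene expression was measured on 12 Affymetrix rhesus arrays. The authors deposited log2 values per probe set, with every probe set centred on its own median. Per the submitters' processing notes the tool was MAS5 (no version stated). Base 2 was read from the range of values, and how arrays were scaled to each other is not given here. Values were used as deposited, since array medians lay between -0.04 and 0.11. Of 52865 probe sets, 99 controls were left out. The gene table gave 1 symbol to 24956 probe sets, several to 361 and none to 27449. The floor was found from the most common differences between arrays (at least 1064 repeats per pair, against at most 5 for the next). High, middle and low signals mean at least 256, at least 16 or less on at least 11 arrays, read from the spacing of the stored numbers.

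All probe sets were fitted with limma 3.58.1 under R 4.3.3, using 4 group means, a correlation between arrays of the same animal (0.0474, found with statmod 1.5.0) and empirical Bayes moderation, with 8 residual and 2.22 prior degrees of freedom, and adjusted by Benjamini-Hochberg over all probe sets or all genes. Tests were 2-sided, and the scripts were tested on simulated data. The number of arrays limits the precision. Each array of a group came from a different animal, and p-values measure the spread between these animals and arrays together. Values on every array are given for agreeing genes and for probe sets with an unadjusted p under 0.05 in any of the 5 comparisons, and a few others were chosen after their values were seen. The receptors, lists and tests were chosen with earlier results of these data known. Alternatives covered scaling, array weights, the animal correlation, a replicate block, sex, age, males only, each region alone, the animals with both regions, signal classes, the floor, gene means and each array left out. Sequences and genome coordinates were not used here.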

Additional observations from a re-analysis of the deposited data

How the results depend on the processing

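In all alternatives run (25 or 26 per comparison over probe sets and 21 over genes), 0 receptors passed an adjusted p of 0.05, as in the values reported. Unadjusted counts under 0.05 moved more: 2 to 6 probe sets in IPS, 1 to 6 in SII, 0 to 7 for the difference, 0 to 4 for the average and 3 to 13 for region. The region count was highest, 13, without SII trained 3 and lowest, 3, in the 4 animals with both regions. With an array left out, the IPS count was highest without IPS control 3 and lowest without IPS control 1 or IPS trained 2. The SII count was 6 without SII control 1, and the difference count was 0 without SII control 2. A fit with the replicate number as a block called 0 receptors in each comparison, with unadjusted counts of 4 in IPS, 1 in SII, 1 for the difference, 1 for the average and 6 for region. Same-numbered deviations correlated at -0.03, 0.01 and 0.01 in IPS and at -0.07, -0.20 and 0.06 in SII. Arrays of the same animal correlated no better, at -0.09 to 0.06, so these values cannot tell whether the numbers pair the samples. CHRNA5 turned round with the mean of its probe sets, to -0.26 in IPS and -0.015 for the average. The count of agreeing genes was 1 with deviations from group means and 2 to 4 with an array left out.

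With high or middle signals only, the serotonin medians moved to -0.015 in IPS and -0.345 for the difference, the adrenergic to 0.39 and 0.83, the muscarinic difference to -0.19, the histamine medians to -0.11 in SII and -0.31 for region, and the median difference of all receptors to -0.068. Without floor probe sets the difference was -0.26 for serotonin, 0.41 for adrenergic and -0.17 for muscarinic receptors. With each array left out, medians ran from 0.13 to 0.32 (IPS), -0.10 to 0.26 (SII) and -0.36 to 0.49 (difference) for serotonin, from -0.428 to 0.003 (SII) and -0.055 to 0.631 (difference) for adrenergic, and from -0.53 to 0.75 (difference) for muscarinic receptors. They ran from -0.178 to 0.067 (IPS), -0.14 to 0.13 (SII) and -0.14 to 0.16 (difference) for nicotinic subunits, from -0.22 to 0.15 (IPS), -0.359 to 0.033 (SII), -0.085 to 0.467 (difference) and -0.225 to 0.007 (region) for histamine receptors, and from -0.071 to 0.159 (difference) for all receptors. The cause of these shifts was not tested beyond the smaller number of probe sets or arrays. Low signals and 3 arrays a group limit every size given.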
